A study of Arabidopsis thaliana with 18 samples.

Results

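Cytochrome c only works as an electron carrier once haem has been fixed covalently to it, and plant mitochondria do this with a multi-protein pathway of bacterial origin, the Ccm pathway. Part of the pathway is still encoded in the mitochondrial genome and part has moved to the nucleus. The genes described here are the mitochondrion-encoded cytochrome c maturation genes with a named probe set on the array, ccb203, ccb206, ccb382 and ccb452. They were chosen by gene name, and they are 4 of the 16 mitochondrion-encoded genes with a named probe set and 4 of 13350 genes named on the array. The RefSeq gene table gives ccb206 as ccmB, ccb382 as ccmFN1, ccb203 as ccmFN2 and ccb452 as ccmFC.

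CcmB is the membrane part of a transporter complex whose ATP-hydrolysing subunit, CCMA, is nucleus-encoded. CcmF belongs to the haem lyase, the complex that joins haem to the apocytochromes c and c1, and in Arabidopsis the protein is split over separate reading frames, FN1, FN2 and FC. The haem is handed to the lyase by the chaperone CCME, and CCMH, a lyase partner, is nucleus-encoded. Cytochrome c carries electrons from complex III to complex IV, and cytochrome c1 is a haem subunit of complex III itself. Antimycin A, the inhibitor used in the study, blocks electron transfer inside complex III.

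The study asked how the antimycin A response differs in plants with a defect in mitochondrial retrograde signalling, the signalling from mitochondria to nuclear genes. Arabidopsis thaliana seedlings 14 days old were of 3 genotypes: a wild type labelled Col-Luc or Col:LUC, and rao1-1 and rao1-2, labelled as regulators of alternative oxidase 1a mutants. They had been grown on Gamborg B5 medium with 3% sucrose at 22 °C in cycles of 16 h light and 8 h dark, following 48 h of stratification at 4 °C, and received a spray of deionised water (mock) or of 50 µM antimycin A. Whole green tissue was taken after 3 h, and 400 ng of total RNA per sample was labelled for Affymetrix ATH1 arrays, 3 arrays for each of the 6 groups. The sources used here do not give the lesion of either mutant or say whether the samples of a group were separate cultures, and p-values cover only the variation among these arrays, some or all of which may be technical. The gene named in the title of the series, CDKE;1, had no probe set named here, so the mutant labels were not checked against it.

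Values are deposited normalized intensities, given as mean ± SD (n = 3), and differences are on the log2 scale ± SE from limma. A difference was called where its adjusted p was under 0.05 (Benjamini-Hochberg, 22746 probe sets). An intensity of 18.9, the valley between the dim and bright modes of all values, was used as background limit, and 61.8% to 62.3% of the probe sets of each array lay above it. The mean correlation of an array with the other arrays of its group was 0.985 to 0.995 across probe sets. The nuclear photosynthesis genes used to check the green tissue label were strongly present, with group means of 8961 to 28635 for the 4 of 6 that were measured (RCA, LHCB4.1, LHCB4.2 and PSBY), and of the root markers PYK10 had means of 462 to 1118 while PRX45 was above the limit on 1 of 18 arrays.

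The 4 probe sets fell into a bright pair and a dim pair. ccb382 and ccb452 lay above the background limit on 18 of 18 arrays, with intensities of 174 to 378 (median 301) and of 116 to 303 (median 203). ccb203 and ccb206 lay under it on every array, with intensities of 3.47 to 14.1 (median 3.84) and of 3.64 to 8.96 (median 3.88). No level of ccb203 or ccb206 was therefore measurable here, and the bright and dim probe sets are not compared in level, because different probes bind with different strength. The probe set of ccb452 is of a kind that can match more than 1 transcript. The nuclear genome of Arabidopsis also holds a large copy of the mitochondrial genome, and the array does not separate transcripts of such copies from those made in the organelle.

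**Figure D1:**
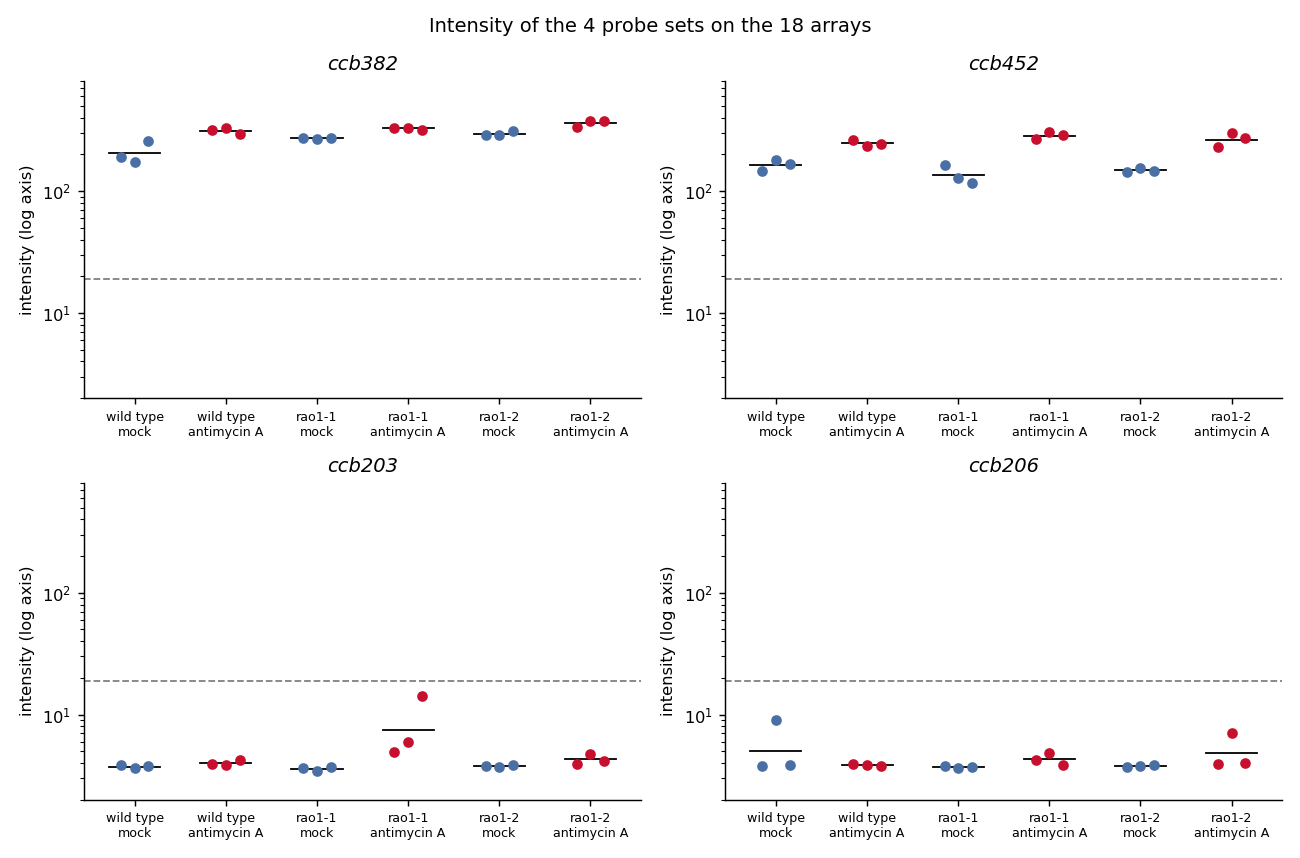
Intensity (log axis) of the 4 probe sets on the 18 arrays. Points are single arrays, black lines the group means of log2 values, blue mock and red antimycin A, and the dashed line the background limit of 18.9. ccb382 and ccb452 stay between 116 and 378, while ccb203 and ccb206 stay between 3.47 and 14.1.

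In wild type, antimycin A raised both bright members by about the same amount. ccb382, which codes for the first N-terminal part of CcmF, read 192, 174 and 259 in the 3 mock samples (208 ± 44.5) and 317, 332 and 293 after antimycin A (314 ± 19.7). The groups did not overlap, although replicate 3 of the mock group stood well above its other two. The log2 difference was 0.61 ± 0.11, or 1.53-fold (adjusted p = 0.000436). ccb452, which codes for the C-terminal part of the same protein, read 145, 179 and 166 under mock (163 ± 16.9) and 262, 235 and 244 after antimycin A (247 ± 13.8). All treated samples were above all mock samples, with a log2 difference of 0.60 ± 0.12, or 1.52-fold (adjusted p = 0.00132).

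Both calls sit in a broad response: of all probe sets 43.2% were called in wild type in either direction and 14.4% were called higher, against 2 of the 4 members called higher. The arrays of treated and mock seedlings did not overlap, with higher values after treatment, in 18.1% of all probe sets. The median log2 difference was 0.35 over the 4 members, with the dim ccb203 and ccb206 counted in, and 0.00 over all probe sets tested. It was -0.27 over those probe sets with a mean above the limit. When the arrays were instead centred on the spiked poly(A) controls, the median over all probe sets shifted by -0.30, and the differences of ccb382 and ccb452 were 0.31 (adjusted p = 0.169) and 0.30 (adjusted p = 0.142), no longer called. The differences given here are all relative to the bulk of the transcripts.

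In rao1-1, ccb452 rose and ccb382 did not pass the test. ccb452 read 164, 127 and 116 under mock (136 ± 25) and 266, 303 and 287 after antimycin A (285 ± 18.5). The lowest treated sample was far above the highest mock sample, and the log2 difference of 1.08 ± 0.12, or 2.12-fold, was the largest of ccb452 in the 3 genotypes (adjusted p = 1.29e-05). ccb382 read 275, 269 and 271 under mock (272 ± 2.94) and 332, 329 and 318 after antimycin A (327 ± 7.42). The 2 groups did not overlap and were both tight, but with the spread shared over all arrays the log2 difference of 0.26 ± 0.11, or 1.20-fold, was not called (adjusted p = 0.0693). Without replicate 2 or replicate 3 of wild type mock it was called (adjusted p = 0.0351 and 0.00482).

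In rao1-2 both were called, again with the larger difference in ccb452. ccb452 read 144, 155 and 145 under mock (148 ± 6.28) and 228, 298 and 272 after antimycin A (266 ± 35.5), a log2 difference of 0.84 ± 0.12, or 1.78-fold (adjusted p = 9.59e-05). ccb382 read 287, 290 and 310 under mock (296 ± 12.5) and 338, 378 and 374 after antimycin A (363 ± 21.8), a log2 difference of 0.30 ± 0.11, or 1.23-fold (adjusted p = 0.0406). Neither gene's groups overlapped. The call of ccb382 stood close to the threshold: it was lost on leaving out any 1 of 10 arrays, with an adjusted p of up to 0.112, and the difference was 0.05 with the arrays centred on the hybridisation controls (adjusted p = 0.735) and -0.07 with centring on the poly(A) controls (adjusted p = 0.744). ccb452 remained called in both mutants under all alternatives tried, at 0.77 to 1.23 in rao1-1 and 0.47 to 0.94 in rao1-2.

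Of all probe sets 40.6% were called in rao1-1 and 42.9% in rao1-2, and 15.8% and 15.6% were called higher. Treated arrays lay wholly above mock arrays in 31.7% of all probe sets in rao1-1 and in 23.6% in rao1-2. Among the 4 members 2 were called higher in each mutant, in rao1-1 ccb452 and the dim ccb203, in rao1-2 ccb452 and ccb382. The member median was 0.66 in rao1-1 and 0.32 in rao1-2, against 0.04 and 0.03 over all probe sets. Both medians count in ccb203 and ccb206, which were under the background limit on every array. In rao1-1 the median lay between the dim ccb203 at 1.05 and the uncalled ccb382 at 0.26, so it is not a measured response of the members.

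The calls among the dim pair need to be read with the limit in mind. ccb203, which codes for the second N-terminal part of CcmF, read 3.65, 3.47 and 3.68 in rao1-1 mock and 4.94, 5.94 and 14.1 after antimycin A. These values did not overlap, and the log2 difference of 1.05 ± 0.26 was called (adjusted p = 0.00499), yet even the highest lay under the limit, so no fold is given. With values under the limit set to the limit the difference was 0.00. In the other 4 groups ccb203 read between 3.64 and 4.78, with no call for wild type (0.10 ± 0.26, adjusted p = 0.852) or rao1-2 (0.18 ± 0.26, adjusted p = 0.579). ccb206, the transporter subunit, read 3.64 to 4.81 on 16 of 18 arrays; the exceptions were replicate 2 of wild type mock at 8.96 and replicate 2 of rao1-2 antimycin A at 7.10. Its differences after antimycin A of -0.38, 0.21 and 0.35 in wild type, rao1-1 and rao1-2 were not called (adjusted p = 0.327, 0.546 and 0.332).

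Under mock, ccb382 was higher in the mutants, called in 1 of them. Mock wild type (192, 174 and 259) lay below rao1-1 mock (275, 269 and 271) and rao1-2 mock (287, 290 and 310) with no overlap, as did 9.95% and 5.65% of all probe sets. The log2 difference was 0.52 ± 0.11, or 1.44-fold, in rao1-2 (adjusted p = 0.0302), a comparison in which 1.37% of all probe sets were called and 0.633% were called higher. In rao1-1 it was 0.41 ± 0.11, or 1.32-fold (adjusted p = 0.0549, not called). Of all probe sets 4.04% were called there, and 0 of the 4 members were. At an unadjusted p under 0.05 stood 2 members, ccb382 and ccb452, a level not counted over all probe sets. Both ccb382 differences turn on the mock wild-type arrays. Without replicate 3 of that group the difference was 0.57 in rao1-1 and called (adjusted p = 0.000779). Without replicate 1 or replicate 2 the rao1-2 difference was 0.48 and 0.40 and not called (adjusted p = 0.115 and 0.102). Leaving out replicate 2 or replicate 3 of rao1-2 mock also ended that call (adjusted p = 0.0927 and 0.117). So did centring on the poly(A) controls, at a difference of 0.58 (adjusted p = 0.226), and fitting only the compared groups, at 0.52 (adjusted p = 0.38).

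No mock difference of ccb452 was called. Its differences from wild type were -0.28 ± 0.12 in rao1-1 (adjusted p = 0.279) and -0.14 ± 0.12 in rao1-2 (adjusted p = 0.806), both with overlapping arrays. ccb203 and ccb206 were under the limit in all these groups.

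After antimycin A no difference between genotypes was called. ccb382 differed from wild type by 0.06 in rao1-1 (95% interval -0.17 to 0.29, adjusted p = 0.774) and by 0.21 in rao1-2 (-0.02 to 0.45, adjusted p = 0.411). ccb452 differed by 0.21 in rao1-1 (-0.06 to 0.47, adjusted p = 0.373) and by 0.10 in rao1-2 (-0.17 to 0.37, adjusted p = 0.846). The arrays of ccb382 in rao1-2 (338 to 378) lay wholly above those of wild type (293 to 332), as did those of ccb452 in rao1-1 (266 to 303 against 235 to 262), which 10.2% and 14.7% of all probe sets did in these comparisons; the other 2 overlapped. limma called 0 of the 4 members here, where 3.27% and 2.46% of all probe sets were called. At an unadjusted p under 0.05 stood 1 member in rao1-1, the dim ccb203, and 0 in rao1-2, a level not counted over all probe sets. The member nearest to a call was the dim ccb203 in rao1-1 (0.90 ± 0.26, adjusted p = 0.0815), which was called without replicate 1 of the rao1-1 antimycin A group (1.19, adjusted p = 0.0262) or without its replicate 3 (0.44, adjusted p = 0.0184). Between the mutants limma called 0 members under mock (0.145% of all probe sets called) and 0 under antimycin A (0.101%). An unadjusted p under 0.05 was reached by 0 members under mock and by 1 under antimycin A, again the dim ccb203.

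Ordered by level, ccb382 ran from rao1-2 antimycin A through rao1-1 antimycin A, wild type antimycin A, rao1-2 mock and rao1-1 mock to wild type mock. Neighbours overlapped at wild type antimycin A against the group on either side of it, and the step from rao1-1 mock down to wild type mock was the widest, at 0.41. In ccb452 the 3 antimycin A groups came first and the 3 mock groups last, each trio overlapping from neighbour to neighbour, with a gap of 0.60 between wild type antimycin A and wild type mock. As a description of the 18 log2 values, treatment took 87.0% of the sum of squares of ccb452 and genotype 0.104%, while for ccb382 treatment took 47.9% and genotype 29.1%. For the dim pair, 36.8% (ccb203) and 74.1% (ccb206) lay within groups, against 15.3% for ccb382 and 8.06% for ccb452.

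The opposite leanings of the pair in the mutants were tested as differences in response. Averaged over both mutants, the response of ccb382 was smaller than in wild type by 0.33 ± 0.13 on the log2 scale (difference -0.33, 95% interval -0.62 to -0.04), and that of ccb452 was larger by 0.36 ± 0.15 (0.03 to 0.69). Neither was called over all probe sets (adjusted p = 0.347 and 0.378), nor was any member for either mutant alone. At an unadjusted p under 0.05 stood 2 members for both mutants together, 3 for rao1-1 and 0 for rao1-2. The 3 include the dim ccb203, under the background limit on every array. The share of all probe sets at that unadjusted level was not counted, so these counts have nothing to be set against. Calls at the adjusted threshold were rare in these comparisons, at 0.396% of all probe sets for both mutants together, 0.369% for rao1-1 and 0.198% for rao1-2. Without replicate 3 of wild type mock the ccb382 difference was -0.50 for both mutants (adjusted p = 0.0167) and -0.51 for rao1-1 (adjusted p = 0.0311). Other removals of 1 array left it uncalled and as small as -0.21 for both mutants and -0.23 for rao1-1. The adjusted p then reached up to 0.621 and 0.649. With centring on the hybridisation controls, the median over all probe sets shifted by -0.34. The ccb382 difference was then -0.67 for both mutants (adjusted p = 0.0171) and -0.65 for rao1-2 (adjusted p = 0.0331). Calls were not rare under that centring. The probe sets called went from 90 to 7253 for both mutants together and from 45 to 6110 for rao1-2. These calls of ccb382 came with that shift and are not read as a response of its own.

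**Figure D2:**
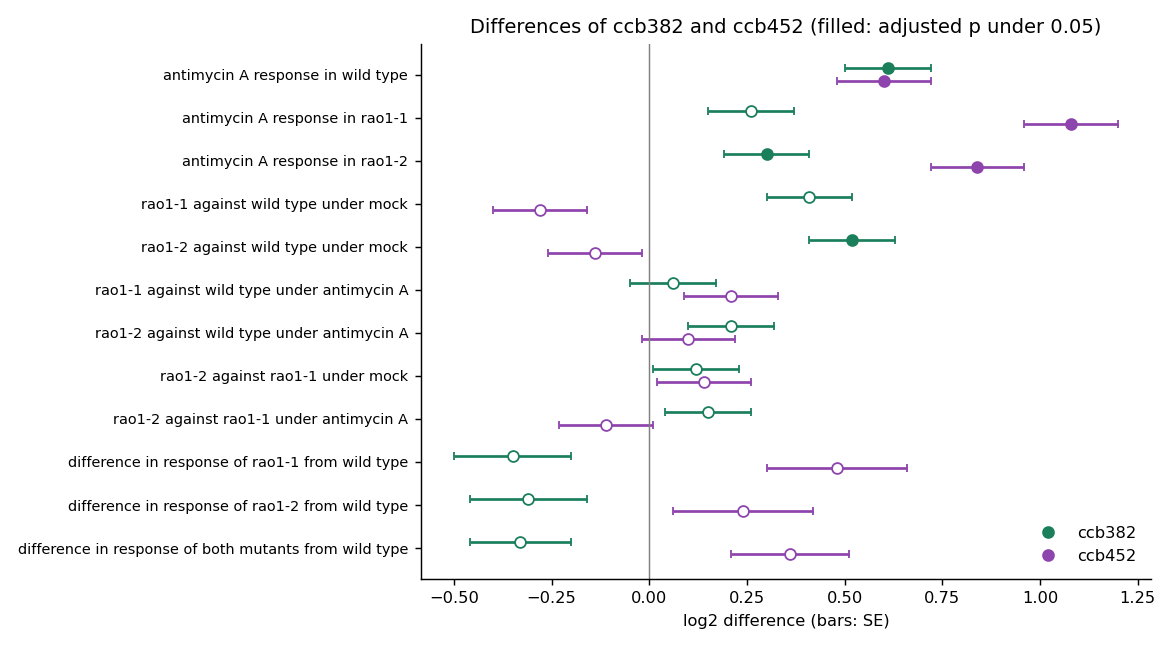
Log2 difference (x axis) of ccb382 (green) and ccb452 (purple) in each of the 12 comparisons, with bars of 1 SE, and filled points where the adjusted p was under 0.05. The antimycin A responses of ccb452 run from 0.60 to 1.08 and those of ccb382 from 0.26 to 0.61.

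A within-array comparison of the pair leaves out whatever scales a whole array. On each array the log2 value of ccb382 was subtracted from that of ccb452; only changes of this difference between groups carry meaning, since its zero depends on the probes. It averaged -0.34 in wild type under mock and -0.34 after antimycin A. Antimycin A took it from -1.02 to -0.20 in rao1-1 and from -1.0 to -0.46 in rao1-2, with no overlap between mock and treated arrays in either mutant. The mutants lay below wild type under mock by 0.67 (difference -0.67, exact permutation test, two-sided, p = 0.0119, the smallest that 84 permutations can give, adjusted p = 0.0374) while after antimycin A the difference was 0.02 (exact permutation p = 0.929). The difference in response between both mutants and wild type was 0.69 (exact permutation p = 0.0125, adjusted p = 0.0374 over the 12 tests of this kind). It ran from 0.50 to 0.84 on leaving out each array in turn. Nearly all of it is the mock difference of -0.67, from the same wild-type mock arrays, so it is not a separate result. Its permutations exchanged genotype labels within each treatment, so a mock difference alone can give a small p. These tests were added after the values had been seen.

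Most of the other mitochondrion-encoded genes were called higher after antimycin A. Of 12 such genes, the wild type had 7 called higher, rao1-1 had 8 and rao1-2 had 9, and none was called lower. Their median log2 differences were 0.95, 1.46 and 1.14. These medians count in genes with little signal, such as matR, nad7 and nad6, above the limit on 0, 3 and 8 of 18 arrays. In wild type cox1, cox2, nad1, nad4 and nad9, above it on all mock arrays, differed by 1.19, 0.70, 0.56, 0.15 and 1.87. The bright members ccb382 and ccb452 differed by 0.61 and 0.60 there. For comparison, of 69 plastid-encoded genes 2 were called higher and 2 lower in wild type, and 24 and 23 were called higher in rao1-1 and rao1-2, with medians of -0.01, 0.12 and 0.18. Centring the arrays on the poly(A) controls, the hybridisation controls or the plastid-encoded probe sets left the median of the 12 mitochondrial genes, dim ones counted in, between 0.65 and 1.23. Among 8 complex I subunit genes measured, 4, 5 and 6 were called higher in wild type, rao1-1 and rao1-2. Of these nad5 had the largest rise in wild type, from 17.4 ± 7.64 to 67.4 ± 24.3, 4.01-fold (adjusted p = 0.000559), from a mock mean under the background limit of 18.9. The dimmer of its 2 probe sets, above the limit on 3 of 18 arrays, had a wild-type difference of 0.34 (adjusted p = 0.535, not called). The called genes nad4L, nad5 and nad6 were above the limit on 1, 2 and 0 of 9 mock arrays. The brighter nad4 had a wild-type difference of 0.15 and was not called there.

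Of the genes for complex IV, the enzyme that takes electrons from cytochrome c, cox1 and cox2 were measured, and both were called higher in all 3 genotypes. cox1, its core subunit, rose from 341 ± 24.7 to 786 ± 135 in wild type, 2.28-fold (adjusted p = 5.3e-06), with log2 differences of 1.01 in rao1-1 and 0.95 in rao1-2. cox2, the subunit that first receives the electrons, had log2 differences of 0.70, 1.5 and 0.78 in wild type, rao1-1 and rao1-2. orfX, also called mttB and related to bacterial membrane protein translocases, had differences of 1.36, 1.42 and 1.18, all called. matR, an intron maturase gene, was under the limit on every array. The genes for cytochrome b, cox3, ATP synthase subunits, ribosomal proteins and the remaining maturation gene ccb256 (ccmC) lacked a named probe set and are not analysed here. The 7 probe sets of nad1, whose exons are transcribed apart and joined by trans-splicing, disagreed: 2 were under the limit on every array, the other 5 had wild-type differences of 0.47 to 1.55, and the brightest stands for the gene.

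**Figure D3:**
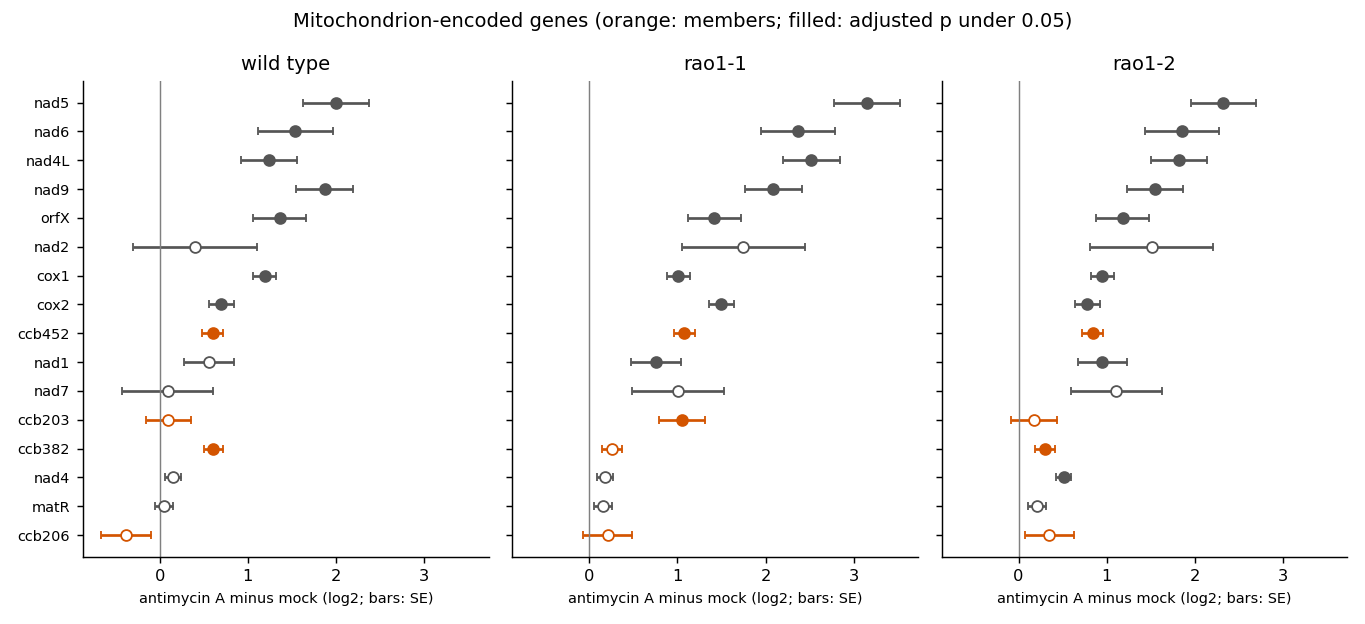
Log2 difference between antimycin A and mock (x axis, bars of 1 SE) for the 16 mitochondrion-encoded genes in wild type, rao1-1 and rao1-2, ordered by their mean, with members in orange and filled points where the adjusted p was under 0.05. ccb452 lies near the middle and ccb382 in the lower part of the order, at 0.61, 0.26 and 0.30 in wild type, rao1-1 and rao1-2.

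Set on each array against the mean of 5 other mitochondrion-encoded genes, ccb382 responded less than that mean, while the results of ccb452 turned on which of 2 reference sets was used. A first reference held the 9 genes with a mean above the background limit, which nad4L and nad5 pass through their treated arrays. On the 9 mock arrays nad2, nad4L and nad5 were above the limit 2, 1 and 2 times. Against this reference a smaller response of the members is thus partly built in. It was therefore replaced, with its results known, by the 5 genes above the limit on all 9 mock arrays, cox1, cox2, nad1, nad4 and nad9. The adjusted p-values below cover the 12 tests made with the 5 genes and the pair, and not the 8 made with the 9 genes.

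Averaged over the 3 genotypes, ccb382 changed by 0.59 less than the mean of the 5 genes (difference -0.59, exact permutation test, two-sided, p = 0.00025, the smallest that 8000 permutations can give in a two-sided test, adjusted p = 0.003). Its level relative to that mean went from 0.72 to 0.44 in wild type, from 1.04 to 0.20 in rao1-1 and from 1.07 to 0.42 in rao1-2. The drop was thus smallest in wild type. The average difference was -0.92 with the 9 genes, where it is partly built in. Not each of the 5 moved more than ccb382. In wild type, rao1-1 and rao1-2 the log2 differences were 0.15, 0.18 and 0.51 for nad4. They were 0.56, 0.76 and 0.95 for nad1, and 1.87, 2.09 and 1.55 for nad9. For ccb382 they were 0.61, 0.26 and 0.30. Under mock it was higher in the mutants than in wild type by 0.33 (exact permutation p = 0.0238, adjusted p = 0.0408). Without replicate 1 or replicate 2 of wild type mock it was 0.32 and 0.24, and p did not stay under 0.05 (exact permutation p = 0.0714 for each). Fewer arrays allow fewer permutations and larger steps of p, and 0.32 is close to the full value. The difference in response of ccb382 between both mutants and wild type was -0.46 (exact permutation p = 0.0207, adjusted p = 0.0408). It was lost without replicate 2 of wild type mock (-0.37, exact permutation p = 0.0565) or replicate 2 of wild type antimycin A (-0.42, exact permutation p = 0.057). It contains the mock difference of 0.33, from the same wild-type mock arrays. After antimycin A the mutants differed from wild type by -0.13 (exact permutation p = 0.405).

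For ccb452 the treatment difference was -0.14 with the 5 genes (exact permutation p = 0.157, adjusted p = 0.235) and -0.47 with the 9 genes (exact permutation p = 0.00175). Between the mutants and wild type under mock it was -0.34 with the 5 genes (exact permutation p = 0.0238) and -0.09 with the 9 genes (exact permutation p = 0.607), and leaving out any 1 of 4 mock arrays took the former past 0.05. Neither is given as a difference of ccb452 from the other genes, since each held with 1 reference and not the other. Its difference in response was 0.22 with the 5 genes (exact permutation p = 0.325).

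**Figure D4:**
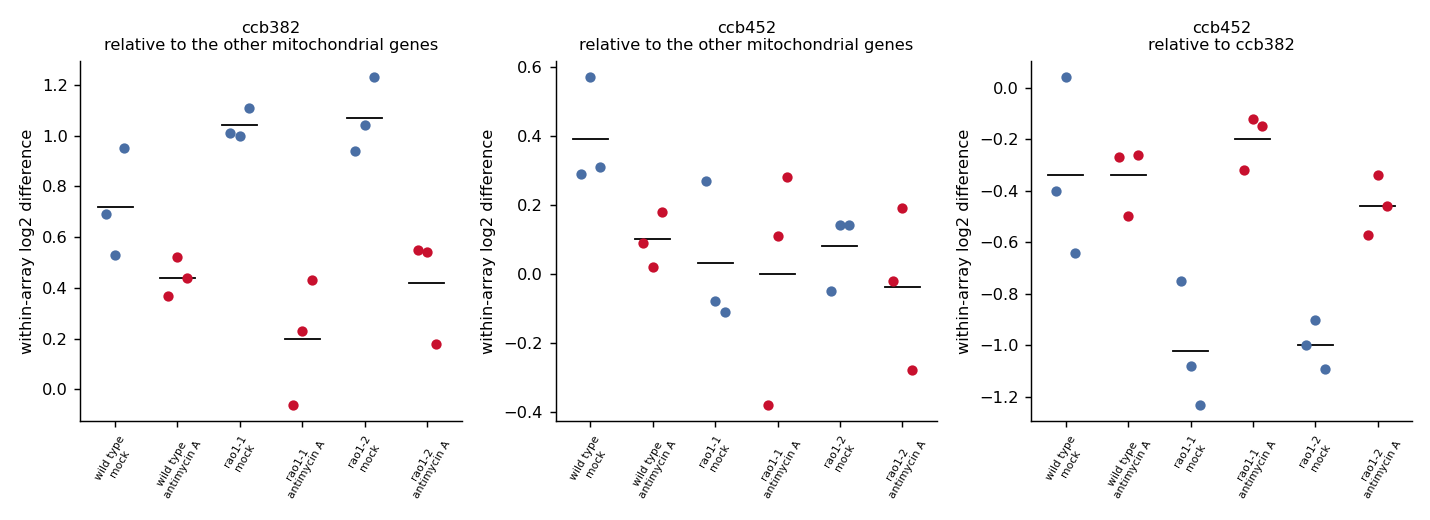
Within-array log2 differences (y axis) by group for ccb382 and for ccb452 relative to the mean of 5 other mitochondrion-encoded genes, and for ccb452 relative to ccb382. Points are single arrays and lines group means. In the panel on the right the mock arrays of both mutants lie lowest, with means of -1.02 and -1.0 against -0.34 in wild type mock.

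Of the ribosomal RNA controls, 25S moved with treatment. The 25S rRNA probe set, a control for a nuclear ribosomal RNA, was higher after antimycin A. Its log2 differences were 0.84, 1.24 and 1.05 in wild type, rao1-1 and rao1-2. The order of the genotypes was that of ccb452 and the reverse of that of ccb382 (0.61, 0.26 and 0.30). The 5S rRNA probe set, under the background limit, differed by 0.02, 0.27 and 0.11. The part of the 25S reading in the results was not tested. Plant mitochondrial transcripts mostly lack the long poly(A) tail that oligo(dT) labelling uses, as does ribosomal RNA. In whole tissue, a change in the number of cells or mitochondria that hold a transcript and a change in its amount in each cannot be told apart. The mitochondrial polynucleotide phosphorylase gene mtPNP, which codes for an exonuclease of mitochondrial RNA processing and decay, fell from 78.6 ± 24.4 to 38.4 ± 4.44 in wild type, 1.99-fold (adjusted p = 0.0135), with log2 differences of -1.64 in rao1-1 and -1.56 in rao1-2, both called. RPOTMP, an organelle RNA polymerase gene, fell by 0.60 in rao1-2 (adjusted p = 0.00275), and its differences of -0.19 in wild type and -0.22 in rao1-1 were not called. These were the 2 of 6 genes on that list with a named probe set.

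Of the nucleus-encoded partners, CCMH was the 1 of 3 with a named probe set. It rose from 55.2 ± 5.62 to 86.1 ± 11.1 in wild type, 1.56-fold (adjusted p = 0.0111), from 60.2 ± 11.3 to 95.2 ± 15 in rao1-1, 1.58-fold (adjusted p = 0.00957), and from 56.3 ± 13.1 to 117 ± 12.4 in rao1-2, 2.11-fold (adjusted p = 0.000281). No group of treated arrays overlapped its mock arrays. The response of CCMH in both mutants differed from wild type by 0.23 ± 0.22 (adjusted p = 0.72).

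The substrates of the pathway went different ways. CYTC-2, a gene for cytochrome c, rose from 567 ± 243 to 1718 ± 164 in wild type, 3.24-fold (adjusted p = 0.000773), and was called higher in both mutants too, at 1.03 and 0.89 on the log2 scale. Under mock it was already 2.39-fold higher in rao1-1 than in wild type (adjusted p = 0.0487), with 2.27-fold in rao1-2 (adjusted p = 0.0991, not called). CYTC-1, the other cytochrome c gene, was not called, with differences of 0.18, -0.18 and -0.20 in wild type, rao1-1 and rao1-2. CYC1-2, a cytochrome c1 gene, fell by 0.53, 0.33 and 0.64, all called, and CYC1-1 fell by 0.45 in rao1-2 (adjusted p = 0.00593) while its -0.20 in wild type and -0.27 in rao1-1 were not called.

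By profile over the 18 arrays, the bright members were not each other's nearest probe sets. Likeness was the root mean square difference of log2 values, each probe set centred on its own mean, searched over 7652 named probe sets above the limit. For ccb382 the nearest were MAMI, AT4G25210 and AT1G01490, at 0.144, 0.148 and 0.149, and for ccb452 AT2G30350, AT4G19390 and AT2G26800, at 0.158, 0.165 and 0.179, all nuclear. ccb382 and ccb452 differed from each other by 0.364, which put ccb452 at rank 1616 from ccb382 and ccb382 at rank 773 from ccb452. Of the nearest 50 of either, 0 were mitochondrion-encoded, but with 0.17% of the probe sets searched being so, hardly any would be among 50 taken at large. The profiles of ccb203 and ccb206, all under the limit, are not compared.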

How the data were processed

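The authors deposited 1 normalized intensity per probe set and array on a linear scale; per the submitters' processing notes the tools were RMA and GCRMA, with no version, and the sources used here do not say which of the 2 gave these values. Either makes the arrays' distributions alike, so that a shift common to most transcripts is removed. Samples were grouped by their labels. Intensities ran from 1.61 to 64819.8, array medians from 77.8 to 91.8, and 0 pairs of arrays were identical. The log2 was taken with no pseudocount. Of 22810 probe sets, 64 controls were left out and 22746 fitted with limma 3.58.1 in R 4.3.3 (1 mean per group, 18 arrays, 12 residual degrees of freedom, eBayes, two-sided, Benjamini-Hochberg over all), a fit tested on simulated data. The platform annotation gave 1 gene to 13513 probe sets, several to 503 and none to 8730; names were updated through the RefSeq table of TAIR10.1. A gene with several probe sets is represented by the brightest.

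The background limit (log2 4.24) was set after the values were seen. A fold is given as "at least", or not at all, where a group lay under it on all arrays. The number of arrays limits the precision. Members and gene lists were chosen with earlier results of these data known. Named are the members, all measured genes of lists with up to 4, the most changed called gene of longer lists, and the 3 probe sets nearest in profile to each member above the limit; values of others were given after they were seen. Exact permutation tests (Python 3.11.15, SciPy 1.17.1) were run over arrays on within-array differences, first with 9 and then, with those results known, with 5 reference genes. Alternatives were 3 other scalings with a further one on plastid-encoded probe sets, a floor, a pseudocount of 16, a filter on dim probe sets, only the compared groups, trend and robust moderation, a replicate block and leaving out each array.

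Same-numbered arrays of different groups deviated together only in part: the correlation of their deviations from the group means was over 0.1 in 25 of 45 pairs (median 0.133), and in every pair for 3 of 15 pairs of groups, rao1-2 mock with rao1-2 antimycin A and wild type antimycin A with either rao1-2 group.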

Additional observations from a re-analysis of the deposited data

Results flagged for a closer look

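For ccb382 set on the same array against the mean of the 5 other mitochondrion-encoded genes above the background limit on every mock array, the antimycin A response differed between both mutants and wild type by -0.46 on the log2 scale (exact permutation p = 0.0207, adjusted p = 0.0408 over 12 tests), and by -0.58 to -0.37 on leaving out each array in turn, with p over 0.05 without replicate 2 of wild type mock (p = 0.0565) or of wild type antimycin A (p = 0.057). For ccb452 set against ccb382 on the same array, the corresponding difference was 0.69 (exact permutation p = 0.0125, adjusted p = 0.0374), with 0.50 to 0.84 on leaving out each array. They are listed because the test of the difference between genotypes itself passed the threshold, with adjustment over 12 tests. limma called neither gene's own difference in response (adjusted p = 0.347 for ccb382 and 0.378 for ccb452). That adjustment covered 22746 probe sets, and before it both genes stood under 0.05 in limma too. The unlike outcomes thus do not show that the within-array differences found more than limma did. Both within-array differences contain ccb382, so these are not independent results. Each also contains the mock difference between the genotypes, 0.33 for the first and -0.67 for the second, and is not separate from it. Both tests were chosen after the values had been seen, and the 5 genes replaced a reference of 9 after its result was known (-0.72 with the 9).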

How the results depend on the processing

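Over 1540 values under an alternative, of the members and of the within-array differences, 1492 stayed on their side of the threshold. Among these, 24 changed sign with neither value called. A further 33 lost a call, 14 gained one and 1 turned. The value that turned was ccb382 in rao1-2, at -0.07 with centring on the poly(A) controls. The total counts in the dim ccb203 and ccb206 and comparisons with no call to lose. It is therefore not a measure of how firm the calls were. The call of ccb382 in rao1-2 was lost on leaving out any 1 of 10 of the 18 arrays. The number of members called, 2 in each antimycin A response, was 1 in wild type and 1 in rao1-2 with that centring, 1 in rao1-2 with hybridisation control centring and with trend and robust moderation (ccb382 0.30, adjusted p = 0.0546), and 1 in both mutants with centring on the plastid-encoded probe sets (ccb382 0.02 in rao1-2, adjusted p = 0.924; ccb203 0.73 in rao1-1, adjusted p = 0.0593), an alternative added after seeing the data. It was 1 in rao1-1 with values under the limit set to it and with dim probe sets left out, both of which remove ccb203. With centring on the poly(A) controls ccb206 was called lower in wild type (-0.68, adjusted p = 0.0291). With only the compared groups, ccb203 lost its call in rao1-1 (adjusted p = 0.0938) and ccb382 gained one (adjusted p = 0.0146).

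Under mock, the count was 1 instead of 0 in rao1-1 with hybridisation control centring (ccb382 0.59, adjusted p = 0.0191) and with quantile normalization (0.46, adjusted p = 0.0462), and 0 instead of 1 in rao1-2 with centring on the poly(A) controls and with only the compared groups. For the difference in response the count was 1 instead of 0 with hybridisation control centring, in rao1-2 and in both mutants together. That centring raised the calls over all probe sets as well. They went from 918 to 5881 in rao1-1 against wild type under mock. For the difference in response they went from 45 to 6110 in rao1-2 and from 90 to 7253 in both mutants together. Leaving out 1 array gave 1 to 2 calls for the rao1-2 response and 0 to 1 for rao1-1 and rao1-2 against wild type under mock, for rao1-1 against wild type under antimycin A, and for the difference in response of rao1-1 and of both mutants.

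Centring on the poly(A) controls shifted the median over all probe sets by -0.30, -0.28 and -0.37 in the wild type, rao1-1 and rao1-2 responses, and hybridisation control centring by 0.10, -0.23 and -0.24, and by 0.19 and 0.17 for rao1-1 and rao1-2 against wild type under mock. The causes of these changes were not tested. With all 9 other mitochondrion-encoded genes with a mean above the limit as reference, a choice that some genes meet only through their level after treatment, the treatment difference was -0.92 for ccb382 and -0.47 for ccb452 (exact permutation p = 0.00175), the mock difference of ccb452 was -0.09 (exact permutation p = 0.607), and the difference in response of ccb382 was -0.72. That was the first reference used, and the 5 genes were chosen after its results were known. With the replicate number as a block, the log2 differences were as without it and no member's call changed, for example ccb382 at 0.30 in rao1-2 (adjusted p = 0.048).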
